A study of Mus musculus with 3 samples.

Results

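Spiral ganglion neurons were represented by 630 of the 12716 cell barcodes of 28-day-old (P28) mouse cochleae that passed limits on genes and mitochondrial RNA, with 338 in replicate 1 and 292 in replicate 2. The 2 P28 libraries held 30144 barcodes in all and the series 32657. The members were selected on measured RNA. A member had 200 to 6000 genes, at most 15% of its unique molecular identifiers (UMIs) from mitochondrial genes, and at least 1 UMI in 3 or more of the 6 neuronal genes *Tubb3*, *Nefh*, *Nefl*, *Nefm*, *Snap25* and *Stmn2*. *Ocm*, which encodes the outer hair cell protein oncomodulin, had to lie below 0.5% of its UMIs. The levels of these 7 genes, of the mitochondrial genes and of the number of genes were fixed by that choice and are given without a test.

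Spiral ganglion neurons carry sound information from the hair cells of the organ of Corti to the cochlear nucleus of the brainstem. Type I neurons, the large majority, are bipolar and myelinated, receive glutamate from a single inner hair cell, and release glutamate at fast, large central synapses. They are known to comprise subtypes that differ in *Calb2*, *Calb1*, *Lypd1*, *Pou4f1* and *Runx1*, while the rare type II neurons, which express *Prph*, contact outer hair cells.

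Cochleae of C57/B6 mice (C57BL/6J in the study's methods) were dissociated with collagenase. Unsorted cells were captured with 10x Genomics 3′ chemistry (v3.1), where 1 UMI stands for 1 captured RNA molecule. Each library pooled 14 cochleae of 7 mice, mainly from the upper basal to the apical turn, and the labels name no transgene or treatment. There were 2 libraries at P28 and 1 at P14. A level is the sum of a gene's UMIs over the barcodes of a class in 1 library, scaled to counts per 1e6 UMIs (CPM), and paired values are replicate 1 followed by replicate 2. Hair cell barcodes (447 and 351) were non-members with *Ocm* at 0.5% of UMIs or more, or with UMIs of both *Otof* and *Slc17a8*, and glial barcodes (167 and 195) were other non-members with UMIs in 3 or more of 6 glial genes, among them *Mbp*, *Pmp22*, *Sox10* and *Mag*, so these genes were fixed by the choice of those classes. Levels were not scaled to transcript length and were compared between classes, and genes were ranked by level only to name the one with most UMIs in a list of another cell type.

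Replicate 1 held 35485894 UMIs and replicate 2 held 37530956 UMIs. Members made up 5.98% of the barcodes within the limits in replicate 1 (95% exact binomial interval 5.38 to 6.63) and 4.13% in replicate 2 (3.68 to 4.62), but 14.7% and 14.3% of their UMIs. The median member had 11566 and 12821 UMIs and 4274 and 4605 genes, against 2360 and 1957 UMIs and 1212 and 1037 genes in all other barcodes. Neuronal barcodes were thus deeper than their neighbours in both libraries. Mitochondrial UMIs took a median of 6.46% and 4.65% in members and 10.2% and 10.9% in the others. Ribosomal protein genes took 4.28% in members of either library, against 14.4% and 15.8%. These intervals, and all others given here, cover counting error only.

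The upper gene limit cut through the deepest neurons of replicate 1. There, 42 barcodes met every other condition and had more than 6000 genes, against 1 in replicate 2, and 96 and 11 members lay between 5500 and 6000 genes. A further 119 and 67 barcodes failed the mitochondrial limit alone, with medians of 1079 and 977 UMIs. Another 102 and 108 barcodes had 2 of the 6 markers, and 16 and 8 failed the *Ocm* limit alone. The P28 libraries shared 54 barcode sequences, of which 1 belonged to a member of replicate 1, and the P14 library shared 10 with replicate 1, of which 1 was a member, and 20 with replicate 2, none of them members.

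The genes of the rule separated the classes by construction. *Nefh*, the heavy neurofilament gene, stood at 2994 and 2964 CPM in members and 8.06 and 10.2 CPM in all other barcodes, and *Snap25*, of the vesicle fusion complex, at 5377 and 5447 CPM against 28.7 and 22.5 CPM. *Tubb3*, the neuronal tubulin gene, stood at 752 and 702 CPM against 3.43 and 4.25 CPM, and *Ocm* at 37.3 and 54.5 CPM against 2062 and 1237 CPM. All 3 neuronal genes were close to equal in the libraries. Just inside the rule, members with 3 markers had a summed level of 1110 and 898 CPM over the 6 genes, and just outside it barcodes with 2 markers had 435 and 524 CPM.

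All 6 markers were found in 215 members of replicate 1 (63.6%) and 245 of replicate 2 (83.9%), with medians of 17613 and 13487 UMIs. Members with 5 markers numbered 48 and 20, with 4 markers 31 and 9, and with 3 markers 44 and 18. As independent checks on the label, *Slc17a7*, which encodes the vesicular glutamate transporter VGLUT1, and *Cplx1*, which encodes the fusion clamp complexin, were followed across these strata. In the members with 6 markers *Slc17a7* stood at 1231 and 1004 CPM and *Cplx1* at 1918 and 1847 CPM. In those with 3 markers *Slc17a7* stood at 52.1 and 86.0 CPM and *Cplx1* at 92.2 and 57.3 CPM. Summed over barcodes, both genes were thus low in the members with the fewest markers. In these sums, 15 of the 44 and 8 of the 18 members held 2 or more hair cell UMIs. None of them had a *Slc17a7* UMI, and each had more UMIs than the median of its group (2238 and 5120). The sums therefore understate the *Slc17a7* level of the remaining members with 3 markers.

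The strata also differed in RNA of other cells. *Otof*, which encodes the inner hair cell calcium sensor otoferlin, stood at 3.49 and 4.55 CPM in members with 6 markers and at 2501 and 1844 CPM in members with 3, which is above its level of 1088 and 1086 CPM in hair cell barcodes. These are sums that some of the barcodes carried, since 2 or more hair cell UMIs were found in 15 of the 44 and 8 of the 18 members with 3 markers. They were also found in 2 of the 9 members of replicate 2 with 4 markers, where *Otof* stood at 1970 CPM. Just outside the rule, barcodes with 2 markers had 1715 and 1634 CPM. Haemoglobin RNA peaked in the members with 5 markers, where *Hbb-bs* stood at 18647 and 20650.3 CPM, against 755 and 495 CPM in those with 6. In replicate 1, 5 barcodes with more than 10% globin UMIs held 50.5% of the members' globin RNA, and in replicate 2, 3 barcodes held 80.5%.

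**Figure D1:**
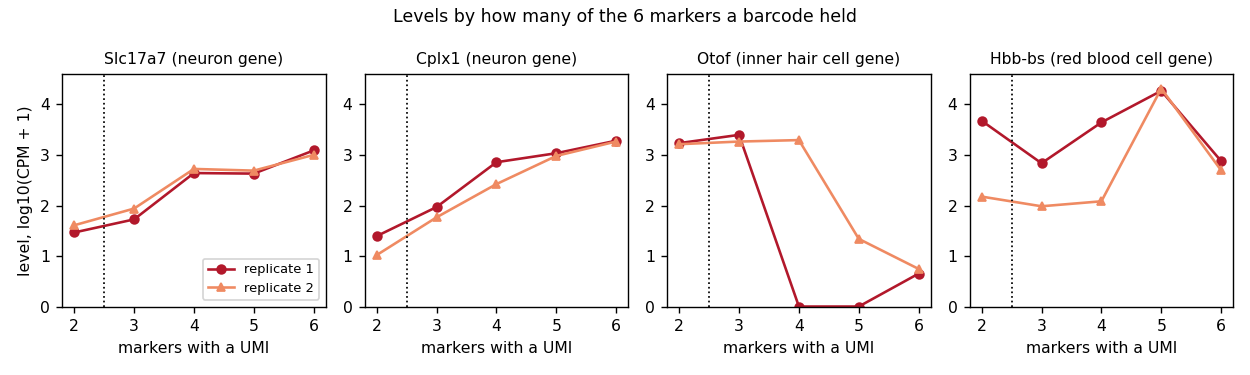
Levels (log10(CPM + 1), vertical axes) of 2 neuron genes, 1 inner hair cell gene and 1 red blood cell gene in barcodes with 2 to 6 of the 6 markers (horizontal axes), summed per P28 library, with members to the right of the dotted line. *Slc17a7* and *Cplx1* were highest with 6 markers, *Otof* was highest with 3 markers in replicate 1 and 4 markers in replicate 2, and *Hbb-bs* was highest with 5.

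A few barcodes held most of the *Otof* and *Mbp* RNA. Members with 2 or more UMIs over *Otof*, *Slc17a8*, *Slc26a5*, *Pou4f3*, *Tmc1* and *Myo7a* numbered 19 and 18, and they held 98.3% and 97.6% of the members' *Otof* UMIs. Members with UMIs in 3 or more of the same 6 glial genes numbered 23 and 38, and they held 87.7% and 83.3% of the members' *Mbp* UMIs. Other genes of these lists were less concentrated, with 29.0% and 47.3% of the *Sox10* UMIs in the members with glial RNA and 84.9% and 61.7% of the *Myo7a* UMIs in those with hair cell RNA. No doublet caller was run, and the comparisons were repeated without the members with glial or hair cell RNA.

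To find which RNA set the neurons apart, the UMIs of the members and of all other P28 barcodes within the limits were summed per library and compared in edgeR (quasi-likelihood test, p-values adjusted after Benjamini and Hochberg). With 2 pooled libraries a class, the p-values measure the spread between libraries of pooled mice. Of 15193 genes tested that the rule did not use, 5316 were higher in the neurons (35.0%) and 6184 were lower (40.7%), with a median log2 fold change of -0.14 over all genes. Since more than 3 in 4 genes differed, the counts for the gene lists that follow are to be read against these shares.

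*Syt2*, which encodes the calcium sensor of fast transmitter release, had the largest difference in favour of the neurons among the genes named by size, at 747 and 709 CPM in the neurons and 1.76 and 2.00 CPM in all other barcodes, which on the log2 scale is a difference of 8.54 with an SE of 0.14 (Benjamini-Hochberg adjusted p from edgeR = 2.10e-08). *Thy1*, a surface glycoprotein of projection neurons, stood at 798 and 736 CPM against 1.76 and 2.85 CPM. *Hapln4*, which links hyaluronan in perineuronal nets, stood at 509.7 and 492 CPM against 1.81 and 1.45 CPM. In each of these the libraries lay close together, while the gap between the classes followed from the choice of genes by size.

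The other genes named by size were *Vstm2l*, *Sez6*, *Nos1* (neuronal nitric oxide synthase), *Grin1* (the obligatory NMDA receptor subunit), *Vsnl1* (a neuronal calcium sensor) and the transcription factor genes *Shox2* and *Onecut2*. Their log2 fold changes lay between 8.05 for *Vsnl1* and 8.17 for *Vstm2l*. *Shox2* stood at 267 and 291 CPM in the neurons against 0.810 and 1.05 CPM, and *Nos1* at 376 and 414 CPM against 1.43 and 1.30 CPM.

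Among the genes lowest in the neurons were *Lyz2* and *C1qa* of macrophages, *Emilin2*, *Fn1* and *Otor* of connective tissue, and *Emcn*, *Cyba*, *Nnat*, *Nkd1* and *Slco1c1*. *Lyz2* stood at 3.87 and 6.02 CPM against 153 and 163 CPM, a log2 fold change of -5.05 (SE 0.18). *Emcn* stood at 23.8 and 42.4 CPM against 925 and 966 CPM. All 10 lay within a narrow range of fold change, up to -4.73 for *Otor*. Their size depended on the setting, and over the alternatives run the weakest values lay between -2.17 for *Emilin2* and -3.34 for *Lyz2*.

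**Figure D2:**
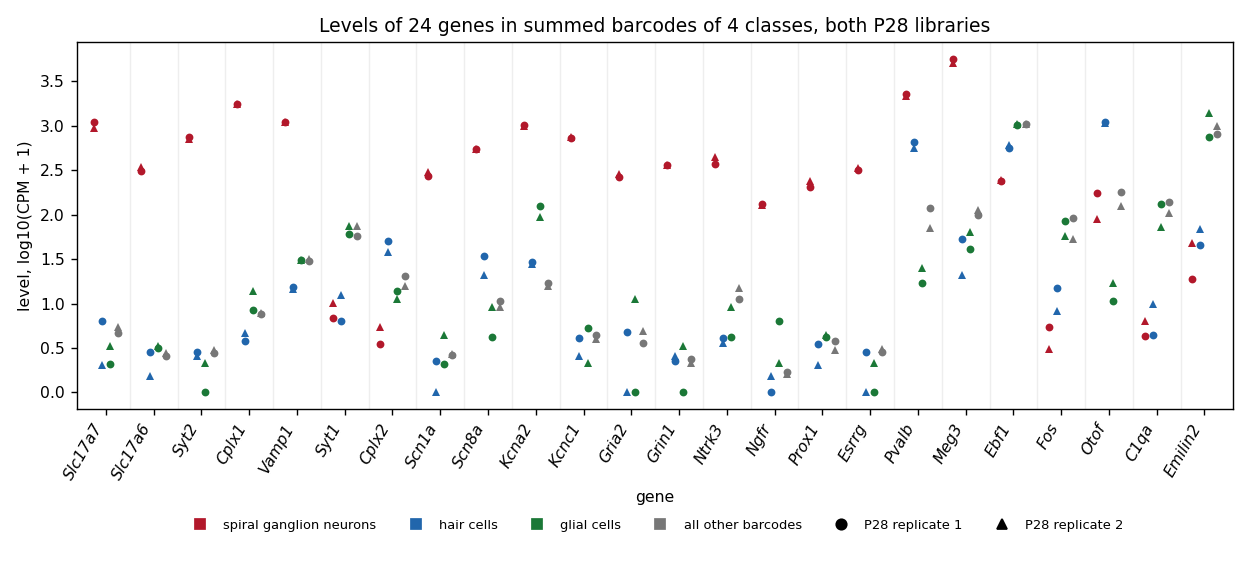
Levels (log10(CPM + 1), vertical axis) of 24 genes in the spiral ganglion neuron, hair cell and glial barcodes and in all other barcodes of the 2 P28 libraries. The first 19 genes except *Syt1* and *Cplx2* lay highest in the neurons in both libraries, while *Ebf1*, *Fos*, *C1qa* and *Emilin2* lay lower there than in all other barcodes.

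Genes of neuronal identity came first. Of 18 genes in a list of transcription factors and RNA-binding proteins of these neurons, 17 were tested, 15 were higher and 2 lower, with a median log2 fold change of 6.47. *Prox1*, which marks type I neurons during their refinement, stood at 205 and 239 CPM against 2.81 and 2.00 CPM, a log2 fold change of 6.47 (SE 0.18). *Esrrg*, an orphan nuclear receptor gene linked to neuronal metabolism, stood at 319 and 338 CPM against 1.86 and 2.10 CPM. *Prox1* and *Esrrg* were thus low in the sum of all other barcodes, which does not show their level in each cell type there. *Scrt1*, a neuronal repressor, had a log2 fold change of 7.57, *Elavl4*, which encodes the RNA-binding protein HuD, 7.70, and *Pou4f1* 8.00.

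Another factor of the neurons was shared with their surroundings. *Isl1* stood at 533 and 512 CPM against 122 and 82.0 CPM, and hair cell barcodes had 366 and 342 CPM. The 2 lower genes of the list were *Gata3*, needed for the wiring of these neurons, with 153 and 123 CPM against 429 and 310.3 CPM, and *Ebf1*, with 239 and 242 CPM against 1042 and 1048 CPM. Both were lower in the neurons, by log2 fold changes of -1.46 (SE 0.17) and -2.16 (SE 0.09), and the larger adjusted p of the pair was 1.02e-04 for *Gata3* (edgeR, Benjamini-Hochberg).

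Of 30 genes of vesicle loading and release at glutamatergic synapses, all tested, 24 were higher and 5 lower, with a median of 5.23. The neurons held both vesicular glutamate transporters of central synapses. *Slc17a7* stood at 1102 and 955 CPM against 3.67 and 4.45 CPM, and *Slc17a6*, which encodes VGLUT2, at 306 and 339 CPM against 1.57 and 1.75 CPM. Their log2 fold changes were 7.94 (SE 0.17) and 7.55 (SE 0.15). Both were low in the sum of all other barcodes.

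Related genes of the release machinery went opposite ways. *Syt2* was higher in the neurons and *Syt1* lower, at 5.80 and 9.03 CPM against 57.0 and 74.2 CPM. *Cplx1* stood at 1737 and 1745 CPM against 6.63 and 6.76 CPM, while *Cplx2* stood at 2.49 and 4.52 CPM against 19.4 and 14.8 CPM. The synaptobrevin gene *Vamp1* stood at 1116 and 1109 CPM against 28.8 and 30.5 CPM, and its relative *Vamp2* at 75.5 and 74.1 CPM against 148 and 139.5 CPM. The syntaxin gene *Stx1a* was lower, at a log2 fold change of -2.78. The log2 fold changes were -3.20 for *Syt1*, -2.34 for *Cplx2*, -0.99 for *Vamp2* and -1.95 for *Syn3*, and the largest adjusted p among the 5 lower genes was 5.48e-04 for *Stx1a* (edgeR, Benjamini-Hochberg). Of these 5, the calls for *Stx1a* (-1.72) and *Syn3* (-1.10) were lost in barcodes of 200 to 3000 genes, and that for *Cplx2* (-1.67) after thinning to 1000 UMIs.

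Shares of barcodes with a UMI were also compared. *Slc17a7* was found in 74.0% and 87.3% of members, 2.24% and 0.57% of hair cell barcodes and 0.599% and 1.03% of glial barcodes, whose medians were 5389 and 4194 UMIs (hair cells) and 3218 and 3028 UMIs (glia). Thinned to 1000 UMIs, with 21 and 1 shallower members left out, *Slc17a7* was found in 53.6% and 54.6% of members, 0.456% and 0% of hair cell barcodes and 0.667% and 0% of glial barcodes, where 0 allows a share of up to 1.05% and 2.01% (exact binomial interval). *Cplx1* was then found in 71.3% and 77.3% of members, 0.456% and 0.286% of hair cell barcodes and 2.00% and 0.549% of glial barcodes. The difference between the libraries in the unthinned share of *Slc17a7* was not seen after thinning.

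Ion channels of fast and sustained firing were next. Of 12 sodium channel and associated genes, 11 were tested, 9 were higher and 1 lower, with a median of 5.89. *Scn1a* stood at 270.3 and 301 CPM against 1.67 and 1.70 CPM, and *Scn8a*, whose channel sits at nodes of Ranvier, at 548 and 540.0 CPM against 9.72 and 8.06 CPM. The beta subunit gene *Scn4b* had a log2 fold change of 7.88. A pair of intracellular channel partners split, with *Fgf12* at 225 and 209.8 CPM against 3.29 and 3.20 CPM and *Fgf13* at 0.553 and 0.602 CPM against 1.95 and 2.30 CPM (log2 fold changes 6.02 and -1.91). The *Fgf13* value rested on 4 UMIs in the neurons, and its call was lost with DESeq2's Wald test (-1.92), without the neurons of replicate 1 (-1.83) or of replicate 2 (-1.96), and in barcodes of 200 to 3000 genes.

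Of 28 potassium and HCN channel genes, 26 were tested, 22 were higher and 4 lower, with a median of 5.19. *Kcna1* and *Kcna2*, which encode low-threshold channels of the axon, stood at 508 and 608 CPM and 1018 and 984 CPM in the neurons, against 8.48 and 8.21 CPM and 16.0 and 14.9 CPM. *Kcnc1*, which encodes a high-threshold channel of fast-firing neurons, had a log2 fold change of 7.81 (SE 0.13). The 4 lower genes included *Kcnb2*, *Kcnd3* and *Kcnk3*, and *Kcnb2* stood at 5.80 and 7.83 CPM against 68.2 and 68.3 CPM.

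Of 15 genes of the node of Ranvier and axonal domains, 12 were higher, 1 lower and 2 (*Sptbn1* and *Nrcam*) did not pass the test, with a median of 3.57. With library as a replicate block both were called higher (Benjamini-Hochberg adjusted p from edgeR = 0.00331 and 0.0102). *Sptbn4*, the spectrin of nodes and initial segments, stood at 189.6 and 187 CPM against 1.33 and 1.70 CPM. *Cntnap1*, which holds the paranodal junction on the axon side, stood at 161 and 149.6 CPM against 6.39 and 5.76 CPM. *Nrg1*, the axonal signal to Schwann cells, had a log2 fold change of 7.13 and *Ank2* of 2.95. *Nrxn3* was the lower gene, at 6.36 and 10.8 CPM against 31.7 and 41.7 CPM. Of 29 genes of the neuronal cytoskeleton and of axonal transport, 28 were tested, 25 were higher and 3 (*Stmn1*, *Tubb2b* and *Gap43*) lower, with a median of 4.52. *Stmn1* and *Gap43*, which are prominent in growing axons, had log2 fold changes of -2.15 and -1.51. In barcodes of 200 to 3000 genes the calls for *Gap43* (-2.68) and *Tubb2b* (-1.93) were lost, as was that for *Gap43* after thinning (-2.12).

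Receptors of the postsynaptic side were read from a list of 29 glutamate and GABA receptor and scaffold genes, of which 21 were tested, 17 were higher and 3 lower, with a median of 3.25. Of the AMPA receptor subunits, *Gria2*, *Gria3* and *Gria4* stood at 263 and 286, 304 and 309 and 138 and 142 CPM in the neurons, against 2.62 and 3.85, 17.7 and 24.4 and 1.91 and 2.65 CPM. No UMI of *Gria1* was found in the members of either library. The same held for the metabotropic receptor gene *Grm5* and for *Grin2a*, a partner of *Grin1*, and a count of 0 allows a level of up to 0.829 and 0.903 CPM here. *Grm7*, by contrast, stood at 53.3 and 60.5 CPM against 2.19 and 2.70 CPM, and the GABA(B) receptor gene *Gabbr2* at 235 and 248 CPM against 1.10 and 1.45 CPM. *Grik1*, *Shank2* and *Grin3a* were lower, with *Grik1* at 1.38 and 3.31 CPM against 25.3 and 34.5 CPM.

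Neurotrophin signalling genes were mixed. Of 13 genes, 11 were tested, 4 were higher and 3 lower, with a median of -0.16. *Ntrk3* and *Ntrk2*, the receptors for NT-3 and BDNF that these neurons need for survival, stood at 369 and 449.7 CPM against 10.2 and 13.8 CPM and at 348 and 349 CPM against 83.6 and 102 CPM. *Ngfr*, which encodes p75NTR, stood at 129 and 128 CPM against 0.715 and 0.601 CPM. *Igf1r*, *Gfra1* and *Bdnf* were lower, by log2 fold changes of -1.92, -2.92 and -1.01. The call for *Bdnf* was lost in barcodes of 200 to 3000 genes (-0.59) and after thinning to 1000 UMIs (-0.95).

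Of 24 calcium channel, buffer and sensor genes, 17 were higher and 6 lower, with a median of 2.63. *Pvalb*, which encodes parvalbumin, stood at 2277 and 2189.7 CPM against 117 and 69.5 CPM, and *Calb2*, which encodes calretinin, at 3198 and 2521 CPM against 192 and 150.4 CPM. *Cacna1a*, the presynaptic P/Q-type channel gene, stood at 135 and 133 CPM against 10.2 and 9.36 CPM. *Cacna1d*, the channel gene of the hair cell ribbon synapse, was lower at 88.4 and 99.6 CPM against 133 and 116 CPM. That call for *Cacna1d* was lost when the mitochondrial limit was 10%, where its log2 fold change was -0.07, in barcodes of 200 to 3000 genes (-0.17), after thinning to 1000 UMIs (-0.26) and without the neurons of replicate 1, where it was -0.35.

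Most long noncoding RNAs of the list were higher in the neurons. Of 8 genes, 6 were higher and 2 lower, with a median of 5.04. The maternally expressed *Meg3* and *Rian*, which lie in 1 imprinted locus, stood at 5642 and 5147 CPM against 99.3 and 111 CPM and at 1476 and 1484 CPM against 20.4 and 27.0 CPM. *Miat* stood at 378 and 337 CPM in the neurons, 169 and 145 CPM in hair cell barcodes and 29.7 and 19.5 CPM in all other barcodes. *Miat* was found in 62.4% and 84.2% of members and in 63.1% and 51.3% of hair cell barcodes, and in 26.2% and 28.5% and 17.8% and 12.3% after thinning to 1000 UMIs. Only 1 of the 362 glial barcodes held a *Miat* UMI. *Malat1* and *Neat1*, which are retained in the nucleus, were lower in the neurons, by log2 fold changes of -1.65 and -3.56.

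The 3 genes linked to deafness that the study placed in these neurons, a choice made on these libraries, were all higher. *Sema3e*, which encodes a guidance cue, stood at 440.3 and 449 CPM against 3.24 and 3.40 CPM. *Sv2b*, a synaptic vesicle protein gene, stood at 159 and 173 CPM against 2.29 and 1.85 CPM. *Adcy1*, an adenylyl cyclase gene, stood at 355 and 366 CPM against 38.0 and 48.1 CPM, and its lower fold change of 3.02 went with a level in the other barcodes that *Sema3e* and *Sv2b* did not have.

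Genes that dissociation and axon injury are known to induce were largely low in the neurons. Of 14 immediate early and heat shock genes, 9 were lower and 3 (*Atf3*, *Hsp90aa1* and *Dnajb1*) higher, with a median of -2.30. *Fos* stood at 4.42 and 2.11 CPM against 91.2 and 52.0 CPM and *Egr1* at 13.3 and 10.2 CPM against 108 and 95.8 CPM. Of 12 nerve injury genes, 8 were tested, 2 were higher and 5 lower, with a median of -1.19. *Atf3*, an early marker of axotomy that both lists hold, stood at 8.29 and 10.5 CPM against 1.33 and 1.30 CPM, and had a UMI in 7.69% and 9.93% of members and 0.599% and 1.54% of the shallower glial barcodes. Thinned to 1000 UMIs, *Atf3* was found in 0% and 0.687% of members and in no glial barcode, where 0 allows up to 2.43% and 2.01% (exact binomial interval), so that no difference in these shares was detectable at that depth. *Cd24a*, the other higher gene, stood at 1000.2 and 993 CPM against 120.0 and 113 CPM, and no UMI of *Sprr1a* or *Gal* was found in the members.

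Markers of other cell types were lower in the neurons with few exceptions. All 8 macrophage, 7 mesenchymal, 6 supporting cell, 5 red blood cell and 5 B cell genes were lower, as were all 5 tested outer hair cell genes. The macrophage genes summed to 13.8 and 28.6 CPM in the neurons against 715 and 610.0 CPM, and *Lyz2* was the most abundant. The red blood cell genes summed to 2884 and 2092 CPM against 12715 and 18978 CPM, led by *Hbb-bs*. The mesenchymal genes summed to 322 and 573 CPM against 6045 and 8196 CPM, led by *Otos*, and the supporting cell genes to 940.3 and 585 CPM against 6317 and 4988 CPM, led by *Fbxo2*. The 5 outer hair cell genes other than *Ocm*, which the rule used, summed to 69.4 and 68.9 CPM against 841 and 517 CPM. The B cell list held *Ebf1*, which neurons express, and *Cd79b*, *Ms4a1* and *Igkc* had no UMI in the neurons, so that its median log2 fold change was -7.64 as fitted and -3.55 with those genes at the bound that 3 UMIs allow. Of 6 endothelial and strial genes, 4 were tested and 2 were lower, and all 6 summed to 5.53 and 30.7 CPM against 13.8 and 319 CPM.

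Glial and inner hair cell genes were the exceptions. Of 12 Schwann and satellite glial genes, 5 were lower and 3 higher in the neurons, and their sum was 1060.5 and 1349 CPM against 3828 and 3799 CPM, led by *S100b*. Among the higher genes was *Mbp*, which encodes myelin basic protein, at 85.4 and 130.0 CPM against 53.8 and 58.7 CPM. Its log2 fold change was 0.89, and the members with UMIs in 3 or more glial genes, which held most of the members' *Mbp* UMIs, were picked with *Mbp* itself, so its value without them is no test of this difference. The call was lost in barcodes of 200 to 3000 genes (0.28) and after thinning (0.13). Of the 8 inner hair cell genes, 6 were lower and none higher, and *Otof* and *Slc17a8* did not pass the test. With library as a replicate block *Otof* was called lower and *Slc17a8* higher (Benjamini-Hochberg adjusted p from edgeR = 0.0237 and 0.0256). The members with hair cell RNA, picked with *Slc17a8* among other genes, held 341 of 341 and 206 of 207 of the members' *Slc17a8* UMIs. The *Slc17a8* level of the members thus came almost wholly from those barcodes.

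Hair cell barcodes were the closest comparison, since hair cells too are excitable and release glutamate. Inner and outer hair cells were not separated in this class, which was taken in part by *Ocm*, an outer hair cell gene. The study counted more outer than inner hair cells at this age. Members that carried hair cell RNA were counted with the neurons. The values that follow are thus against pooled hair cell barcodes, and not against inner hair cells alone. Of 12553 genes tested, 4694 were higher in the neurons (37.4%) and 4262 lower (34.0%) in edgeR, with a median log2 fold change of 0.05.

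*Bcat1*, which encodes a branched-chain amino acid transaminase, had 668 and 612 UMIs in the neurons and none in hair cell barcodes, and was at least 315-fold higher against a floor of 3 UMIs over both hair cell libraries. *Map1a*, an axonal microtubule protein gene, stood at 1902 and 1893 CPM against 3.12 and 2.60 CPM, which on the log2 scale is a difference of 9.35 with an SE of 0.16 (Benjamini-Hochberg adjusted p from edgeR = 8.62e-14). *Cplx1* stood at 1737 and 1745 CPM against 2.81 and 3.64 CPM, a log2 fold change of 9.13. Both genes were near absent from hair cell barcodes. *Thy1*, *Nap1l5*, *Slc24a2* and *Sncb* (beta-synuclein) had log2 fold changes from 9.16 for *Sncb* to 10.00 for *Nap1l5*. *Ttc9b*, *Zfp804a* and *Nrn1* rested on 1, 1 and 2 hair cell UMIs, with ratios of 1391 (interval 249 to 54977), 961 (172 to 37993) and 803 (222 to 6632).

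Among the genes lowest in the neurons were several of hair cell function. *Slc26a5*, which encodes the outer hair cell motor prestin, had 3 UMIs in the neurons of each library and stood at 407 and 469.6 CPM in hair cells, a log2 fold change of -8.88 (SE 0.20). The efferent acetylcholine receptor genes were also named. *Chrna10* stood at 3.04 and 2.11 CPM against 599.6 and 497 CPM, and *Chrna9* had 1 UMI in the neurons, with a ratio of 788 (141 to 31168) in favour of hair cells. *Strc* (stereocilin), *Sh3gl3*, *C1ql1*, *Dytn* and *Gm45716* lay between -7.06 for *Dytn* and -7.74 for *Sh3gl3*, while *Lmod3* and *1600022D10Rik* had 2 and 3 UMIs in the neurons.

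Read by list against hair cells, release genes were higher in 25 of 29 tested and lower in 3 (*Cplx2*, *Vamp2* and *Syn3*). Hair cells had *Cplx2* at 49.7 and 37.4 CPM and *Vamp2* at 273 and 243 CPM, so that the opposite members of these gene pairs were highest in the opposite cells. Sodium channel genes were higher in 9 of 10, potassium and HCN channel genes in 21 of 25, node and axon genes in 13 of 15 and cytoskeletal genes in 25 of 27. The medians were 4.91 for release genes, 5.38 for sodium and 5.01 for potassium channels (4.74 and 4.54 with genes at 0 in hair cells set to their bound), 4.33 for node and 4.49 for cytoskeletal genes.

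Calcium genes split between the cell types. Of 21 tested, 15 were higher and 3 (*Pcp4*, *Cacna1d* and *Ncald*) lower, with a median of 1.90. *Pcp4*, a small calmodulin regulator, stood at 384 and 207 CPM in the neurons and 13358 and 13325 CPM in hair cells, a log2 fold change of -5.46 (SE 0.22). Over the alternatives run, the *Pcp4* value lay between -8.83 and -4.84. *Cacna1d* stood at 495 and 413 CPM in hair cells, and its log2 fold change was -2.25, which was -0.95 with at most 10% mitochondrial UMIs. *Pvalb* and *Calb2* were higher in the neurons by 1.90 and 1.42, and *Calb1* did not pass the test, at 66.3 and 53.0 CPM against 64.3 and 52.5 CPM. The *Calb2* value lay between 0.44 with at most 10% mitochondrial UMIs and 2.54 in barcodes of 200 to 3000 genes. The study lists *Calb2* among its inner hair cell markers, and a difference from inner hair cells alone was not tested.

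Receptor and ligand genes of the neurotrophin list differed in opposite directions. *Ntrk3* stood at 369 and 449.7 CPM in the neurons and 3.12 and 2.60 CPM in hair cells, and *Ntf3*, which encodes its ligand NT-3, at 1.93 and 2.71 CPM and 8.74 and 11.4 CPM, with log2 fold changes of 7.14 and -2.04. *Ntrk2* stood at 348 and 349 CPM and 20.9 and 32.2 CPM, and *Bdnf*, which encodes its ligand, at 16.6 and 10.5 CPM and 167 and 168 CPM, with log2 fold changes of 3.80 and -3.58. *Igf1r* was lower in the neurons here as well, at -3.01. Of the 10 tested genes of this list, 7 were higher and 3 lower. Receptor genes of the glutamate and GABA list were higher in 15 of 19 and lower in 3, and *Shank2*, a scaffold gene, stood at 1.38 and 2.41 CPM against 56.5 and 48.3 CPM.

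Transcription factor genes of the list were higher in 14 of 17 tested and lower in 3 (*Gata3*, *Ebf1* and *Insm2*), with a median of 6.87. *Miat* was higher in the neurons by a log2 fold change of 1.21 (SE 0.11) and *Meg3* by 7.17 (SE 0.26). The *Miat* value lay between 0.62 in barcodes of 200 to 3000 genes and 2.53 with at most 10% mitochondrial UMIs. Of 10 tested glial genes, 7 were higher and 2 lower. Of the nerve injury genes 5 of 6 tested were higher than in hair cells and none lower, with a median log2 fold change of 2.20, whereas against all other barcodes it was -1.19. *Gap43* and *Sox11* were higher than in hair cells (2.07 and 2.33) and lower than in all other barcodes (-1.51 and -0.87).

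**Figure D3:**
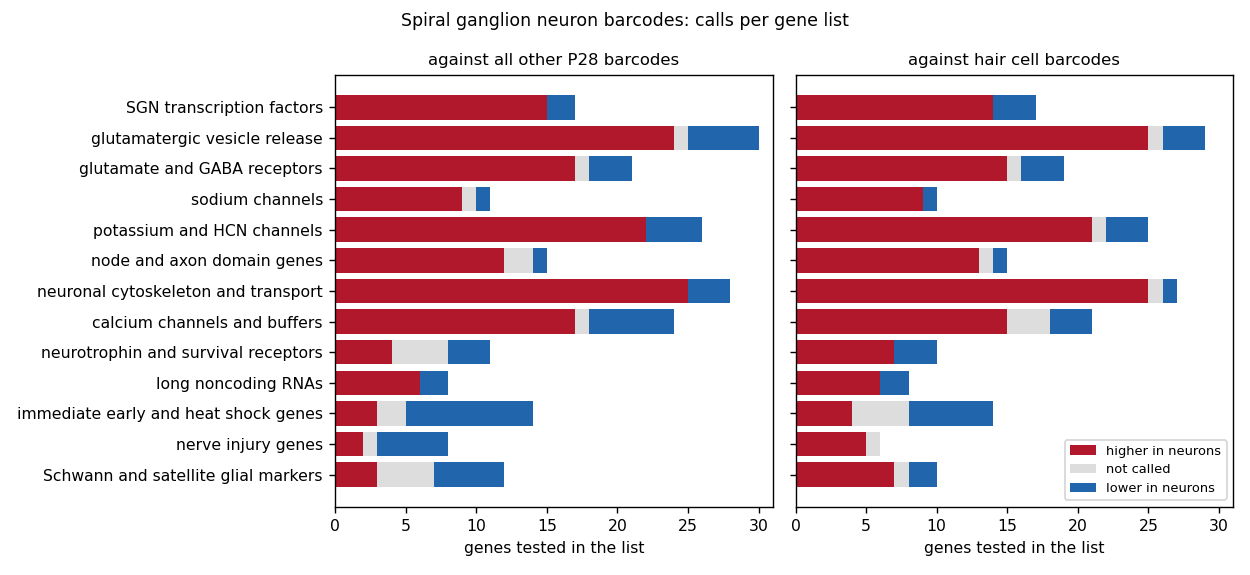
Number of tested genes (horizontal axes) in each of 13 gene lists that were higher, lower or not called in the spiral ganglion neuron barcodes against all other P28 barcodes (left) and against hair cell barcodes (right), at an adjusted p under 0.05. The channel, release, node and cytoskeleton lists were mostly higher on both sides, and the nerve injury list was higher in 2 of 8 genes on the left and in 5 of 6 on the right.

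The neurons were then compared among themselves. Of the 319 and 274 members with fewer than 2 hair cell UMIs, 156 and 110 had *Calb2* and no *Pou4f1* UMI, 37 and 46 had *Pou4f1* and no *Calb2* UMI, 85 and 89 had both and 41 and 29 had neither. The *Calb2* class had medians of 3498 and 12647 UMIs and the *Pou4f1* class 16294 and 13675 UMIs, so in replicate 1 the classes differed in depth. Of 9124 genes tested, 242 were higher in the *Calb2* class (2.65%) and 237 lower (2.60%) in edgeR, with a median log2 fold change of 0.00. By DESeq2's Wald test 88 and 100 genes were called, and in barcodes of 200 to 3000 genes edgeR called 0 and 1 of 1188 tested (80 and 62 at an unadjusted p under 0.05). Of 40 called genes followed across the alternatives, *Lypd1* alone kept its call in barcodes of 200 to 3000 genes, where 20 were tested. After thinning to 1000 UMIs, 25 were tested and *Lypd1*, *Sphkap*, *Slc17a6*, *B3gat1*, *Apod*, *Apoe*, *Cd24a* and *Ptn* kept it.

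**Figure D4:**
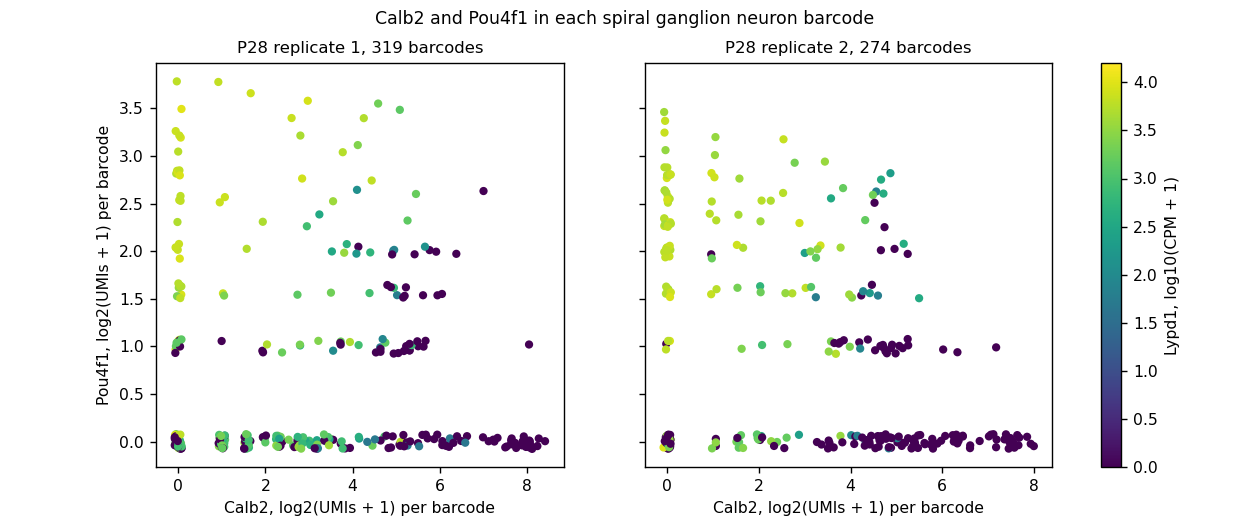
UMIs of *Calb2* (horizontal axes) and *Pou4f1* (vertical axes) in each spiral ganglion neuron barcode with fewer than 2 hair cell UMIs, as log2(UMIs + 1) with small random offsets, coloured by the *Lypd1* level of the barcode (log10(CPM + 1)). Barcodes with *Pou4f1* and little *Calb2* had the highest *Lypd1* and those with most *Calb2* the lowest, in both libraries.

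*Lypd1*, which encodes a modulator of nicotinic receptors, had the largest difference towards the *Pou4f1* class among genes with at least 100 CPM in both libraries of that class. *Lypd1* stood at 252 and 116 CPM in the *Calb2* class and 6729 and 6063 CPM in the *Pou4f1* class, which on the log2 scale is a difference of -5.09 with an SE of 0.19 (Benjamini-Hochberg adjusted p from edgeR = 1.35e-15). Over the alternatives run, the difference in *Lypd1* lay between -5.76 and -2.37. *Sphkap*, an anchor for protein kinase A, stood at 4.47 and 11.9 CPM against 259 and 255 CPM. The gap between the summed levels followed from the choice of both genes by size, and 47.4% and 19.1% of the barcodes of the *Calb2* class held a *Lypd1* UMI.

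The further genes named towards *Pou4f1* were *Cd164l2*, *Rgs12*, *Pcsk2* (a prohormone convertase), *Rph3a* (rabphilin), *Rbfox3* (NeuN), *Tmem117*, *Islr2* and *Cpne6*, with log2 fold changes from -1.65 for *Cpne6* to -3.01 for *Cd164l2*. *Pcsk2* stood at 67.1 and 70.7 CPM against 375 and 343 CPM. *Grm8*, a presynaptic metabotropic receptor gene, stood at 3.73 and 4.26 CPM against 79.0 and 85.7 CPM, and *Kcnc2* had 2 UMIs in the *Calb2* class against 30 (ratio 34.3, interval 8.70 to 296). *Slc17a6* was higher in the *Pou4f1* class, at 190.0 and 203 CPM against 484 and 483 CPM, and so were *Runx1* (-0.79) and *Miat* (-0.83). The call for *Slc17a6* was lost in barcodes of 200 to 3000 genes (-0.63), and that for *Miat* there (-0.93) and after thinning (-0.72).

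Towards the *Calb2* class the largest difference among genes with at least 100 CPM in both its libraries was in *B3gat1*, which encodes the enzyme that makes the HNK-1 carbohydrate. *B3gat1* stood at 233 and 233 CPM in the *Calb2* class and had 1 UMI in the *Pou4f1* class of each library, a ratio of 128 (interval 35.4 to 1062). *Rxrg* had 39 and 36 UMIs in the *Calb2* class and none in the *Pou4f1* class, and was at least 10.9-fold higher. *Calb1* stood at 83.5 and 89.5 CPM against 12.2 and 3.30 CPM and *Ttn* at 73.0 and 76.7 CPM against 12.2 and 3.30 CPM. Of 9 tested subtype genes, 5 were higher in the *Calb2* class and 4 in the *Pou4f1* class. The call for *Pcdh20*, 1 of the 5, was lost with DESeq2 (3.21) and without the *Calb2* class of replicate 1 (2.97), and that for *Runx1*, 1 of the 4, after thinning (-0.78) and in barcodes of 200 to 3000 genes (-0.82).

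*Ptn* (pleiotrophin), *Cd24a*, *Itih5*, *S100a13* and *Syngr1* (synaptogyrin) were also named towards the *Calb2* class, with *Cd24a* at 1365 and 1501 CPM against 343 and 443 CPM. All 5 calls were lost in barcodes of 200 to 3000 genes. The log2 fold change there was 0.02 for *Ptn* and 0.98 for *Cd24a*, against 1.95 and 1.88 with barcodes of up to 6000 genes. It was 1.38 for *Itih5* and 1.02 for *Syngr1*, against 1.81 and 1.68, while that of *S100a13* was no smaller (1.86 against 1.70). The calls for *S100a13* (1.75) and *Syngr1* (2.45) were also lost after thinning. *Sema3e* had a log2 fold change of 0.63 and *Slc17a7* of 0.41 in the same direction. The call for *Sema3e* was lost after thinning (0.24) and in barcodes of 200 to 3000 genes (0.58). That for *Slc17a7* was lost in the same settings (0.17 and 0.09), with DESeq2 (0.40), without members with glial or hair cell RNA (0.39), without the *Calb2* class of replicate 1 (0.31) and without the *Pou4f1* class of replicate 2 (0.25). *Apod*, *Apoe*, *Lgals1* and *Epyc* were named as well, and these are abundant in other cells of the cochlea. *Apod* stood at 169 and 187 CPM against 28.4 and 47.8 CPM, with 1745 and 2289 CPM in all other barcodes. Of 6 tested mesenchymal genes 4 were higher in the *Calb2* class, and so were 3 of 6 supporting cell genes (5 of either list with library as a replicate block). The call for *Otos* was lost with DESeq2 (1.46), with at most 10% mitochondrial UMIs (0.89) and with all 6 markers (0.93). After thinning, the calls for *Otos* (1.57) and *Epyc* (0.72) were lost. In barcodes of 200 to 3000 genes those for *Otos* (1.70), *Epyc* (0.48) and *Apod* (2.48) were lost. That for *Epyc* was also lost with classes set by more UMIs of *Calb2* or of *Pou4f1* (0.66). *Lgals1* stood at 439.7 and 139 CPM in the *Calb2* class, whose median barcode was shallower in replicate 1. Without the *Calb2* class of replicate 1 the log2 fold change of *Lgals1* was 0.59, against 1.66 with both libraries. The part of free or attached RNA of other cells in these differences was not tested.

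**Figure D5:**
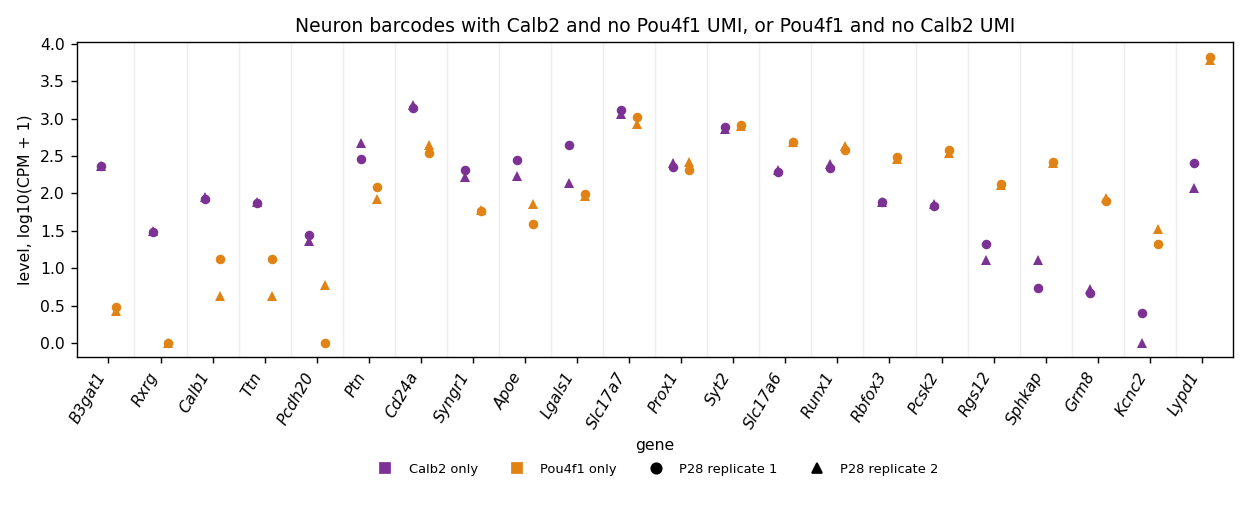
Levels (log10(CPM + 1), vertical axis) of 22 genes in the neuron barcodes with *Calb2* only and with *Pou4f1* only, summed in each P28 library. The classes lay apart in both libraries for *B3gat1*, *Sphkap*, *Grm8* and *Lypd1*, while *Prox1* and *Syt2* lay close together.

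The lists of neuronal programs are given beside the 2.65% and 2.60% of all tested genes that were called in each direction. Of the transcription factor list, 11 of 15 tested genes did not pass the test and 4 were higher in the *Pou4f1* class, among them *Rbfox3*, *Runx1* and *Ebf1*. Of the release genes, 20 of 25 did not pass, 2 were higher in the *Calb2* class and 3 higher in the *Pou4f1* class. Of the potassium and HCN channel genes, 13 of 20 did not pass, 2 (*Kcnip4* and *Kcnk1*) were higher in the *Calb2* class and 5 higher in the *Pou4f1* class, among them *Kcnc2* and *Kcnh7*. The call for *Kcnh7* was lost with DESeq2 (-1.40) and without the *Pou4f1* class of replicate 2 (-1.12). Of the sodium channel genes 6 of 7 and of the node and axon genes 12 of 14 did not pass. With library as a replicate block, 349 and 347 of the 9124 genes were called. Towards the *Pou4f1* class these held 5 transcription factor, 4 release, 6 potassium and HCN channel, 2 sodium channel and 2 node and axon genes. Towards the *Calb2* class they held 2 release, 3 potassium and HCN channel and 1 node and axon gene. The medians of these lists lay between -0.18 for release genes and 0.16 for sodium channels.

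Members with UMIs of both genes lay between the classes for most subtype genes, as a description without a test. *Lypd1* stood at 1796 and 2116 CPM in them, *B3gat1* at 66.0 and 40.3 CPM and *Rxrg* at 6.46 and 0.84 CPM. *Calb1* stood at 83.2 and 52.1 CPM, near its level with *Calb2* alone in replicate 1 and below it in replicate 2. *Runx1* stood at 387 and 423 CPM, near its level with *Pou4f1* alone (377 and 430.2 CPM). These members had medians of 18444 and 13731 UMIs.

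Members with neither gene were shallower, with medians of 1692 and 4929 UMIs, and differed in content. *Slc17a7* stood at 192 and 164 CPM in them and *B3gat1* had no UMI. *Prph* stood at 51.6 and 131 CPM and *Pcdh20* at 214 and 204 CPM, against 26.8 and 22.2 CPM of *Pcdh20* with *Calb2* alone. Nearly all *Prph* RNA, 7 of 7 and 20 of 21 UMIs of these members, lay with neither gene. By the gate of 3 or more *Prph* UMIs, 1 and 2 barcodes would be type II neurons, with 14831 UMIs in the 1 and 18703 UMIs over the 2, and ribosomal protein genes took a median of 11.1% and 10.3% of their UMIs. In all members *Prph* stood at 1.93 and 6.32 CPM, *Th* at 11.9 and 19.0 CPM and *Cilp* at 11.6 and 12.3 CPM. Of 6 type II genes, 5 were higher in the members than in all other barcodes and *Etv4* lower, a call that was lost in barcodes of 200 to 3000 genes (-1.83) and after thinning (-1.27). With so few barcodes, type II neurons were not compared with type I neurons. Nucleus-like members, in which *Malat1* took over 5% and ribosomal protein genes under 5% of UMIs, numbered 6 and 5.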

How the data were processed

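Single-cell RNA-seq counts of 2 P28 libraries were analysed, and the P14 library entered no comparison. The authors deposited UMI counts per gene and barcode as whole numbers that were not normalized. The file header names Cell Ranger 5.0.1, whereas the submitters' processing notes list 6.0.1 with build mm10. UMIs were summed per class and library and tested on 2 sums a class with edgeR 4.0.16 in R 4.3.3 (TMM, filterByExpr, quasi-likelihood test, Benjamini-Hochberg adjustment over all genes tested, threshold 0.05). DESeq2 1.42.0, other filters and other limits on barcodes were alternatives. Sums and figures were made with Python 3.11.15, numpy 2.4.6, scipy 1.17.1, pandas 2.3.3 and matplotlib 3.10.9. Genes that defined a class were left out of its counts of calls.

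The named genes were the 10 with the largest log2 fold change in each direction, past the threshold, in the same direction in both libraries, with at least 30 UMIs in the higher class and at least 100 CPM in both its libraries. Genes of the lists were named besides these, as was *Miat*, and some members of the lists are not reported here by name. The members and the lists were chosen with earlier results of these data known. A gene with 3 UMIs or fewer in the lower class is given as a ratio of summed levels with a counting interval, and one with none against a floor of 3 UMIs.

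The classes compared came from the same 2 libraries, which pairs them, and their deviations correlated at 0.33 over 7904 genes for neurons and all others, 0.19 over 7783 for neurons and hair cells, and 0.13 over 7253 for the *Calb2* and *Pou4f1* classes. Tested on simulated data with 200 genes changed 4-fold, the fit recovered 88.5% of them among 15219 genes for neurons against all others, 89.5% among 12356 genes against hair cells and 82.5% among 9123 genes between the neuron classes. False calls numbered 6, 4 and 5. The simulated sums were independent, had a fixed dispersion and came from a profile that the classes shared. In the data the classes were paired and more than 200 genes were called in each comparison. The recovery is thus a check of the code and gives no error rate for the data.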

Additional observations from a re-analysis of the deposited data

Results flagged for a closer look

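In the P14 library, which entered no comparison, 6 of 1662 barcodes within the limits met the rule for spiral ganglion neurons. No UMI of *Slc17a7*, *Nefh*, *Syt2* or *Prox1* was found in any of the 6. In 2 of them *Otof* had 73 and 40 UMIs. In 3 others *Neurod1* had 19, 1 and 18 UMIs and *Zic1* had 11, 2 and 12 UMIs, genes that were chosen after their values were seen.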

How the results depend on the processing

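The counts of calls depended on the depth of the barcodes that entered. In barcodes of 200 to 3000 genes, which left 206 members, 2231 genes were higher and 2466 lower than in all other barcodes, 2142 and 1970 against hair cells, and in edgeR 0 and 1 between the *Calb2* and *Pou4f1* classes (80 and 62 at an unadjusted p under 0.05). Thinned to 1000 UMIs, the counts were 2973 and 3647, 2030 and 1832, and 9 and 8. DESeq2 called 88 and 100 genes between the *Calb2* and *Pou4f1* classes, where the edgeR test called 242 and 237. The mean share of neurons over the libraries, 5.06%, was 2.00% with 200 to 3000 genes (3.15% and 0.845% in replicates 1 and 2), 8.74% with at most 10% and 3.41% with at most 30% mitochondrial UMIs (4.41% and 2.41%), 6.72% with at least 2 markers and 3.64% with all 6. The settings of all 6 markers and of no upper gene limit were chosen after seeing the data.

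Leaving out 1 class sum at a time gave 4727 to 5138 genes higher and 5359 to 5697 lower against all others, 4232 to 4495 and 3657 to 4065 against hair cells, and 191 to 224 and 179 to 211 between the neuron classes, with the lone sum assumed to vary like the other class. Leaving out a whole library left no residual degrees of freedom and was not tested. With library as a replicate block, which pairs the classes, the counts were 5566 and 6398, 4822 and 4417, and 349 and 347, and no call of a named gene was lost. Against all others *Otof*, *Slc17a8*, *Sptbn1*, *Nrcam* and *S100b* gained a call.

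Without members with glial or hair cell RNA the log2 fold change of *Mbp* against all others was -1.66, which that filter, since it uses *Mbp* and acts on the neurons alone, brings about and which tests nothing. Against all others, the call was lost by 9 of 90 named genes with 200 to 3000 genes (*Bdnf*, *Cacna1d*, *Etv4*, *Fgf13*, *Gap43*, *Mbp*, *Stx1a*, *Syn3* and *Tubb2b*) and by 6 of 88 after thinning (*Bdnf*, *Cacna1d*, *Cplx2*, *Etv4*, *Gap43* and *Mbp*), and against hair cells by none of 48 under the alternatives run. Between the *Calb2* and *Pou4f1* classes, 6 of 40 named genes lost their call with DESeq2, 17 of the 25 still tested lost it after thinning, and 19 of 20 with 200 to 3000 genes. Fewer barcodes and UMIs entered both after thinning and with 200 to 3000 genes, and the cause of the losses was not tested.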
